A study of Mus musculus with 8 samples.

Results

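The cell cycle genes described here were 41 named genes of the mouse, 25 that act in mitosis and 16 that act in S phase. They were found by their mouse symbols among the 27179 rows of the deposited count table, and all 41 were present. Bulk RNA-seq of sorted lung cells gave 8 libraries, 4 of the QZ1-hi and 4 of the QZ1-lo population. QZ1 is a peptide probe that becomes fluorescent when proteases cut it, so the populations differ in how much probe signal a cell carried. The comparison asked how gene expression differed between cells with high and low probe activation in tumor-bearing lungs.

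Both populations came from female C57BL/6J mice of the Eml4-Alk model of lung cancer, where Cas9 and guide RNAs brought to the lung by an adenovirus join the Eml4 and Alk genes. The mice were 11 to 12 weeks past tumor induction and were age-matched to controls of 18 to 22 weeks. All of them received 4.5 nmol of QZ1-(PEG2K) intravenously 2 h before the lungs were collected. The sort took live cells without CD45 or CD11b on their surface and divided them by the Cy5 signal of the probe, gated against EpCAM. Both populations therefore came from induced and probe-treated mice. The rearrangement is made only in cells that are edited, so neither was a sample of tumor cells alone, and the share of cells that carried it was not measured here. The submitters called the 4 libraries of each population biological replicates. Which libraries of the populations shared a mouse was not given in the sources used here, and the replicate numbers below follow the order of deposit and were not used to pair libraries.

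Cell division runs through ordered phases. In late G1 the E2F factors switch on the genes for origin licensing, nucleotide supply and DNA synthesis, which are used in S phase. Genes for spindle assembly, chromosome attachment and cytokinesis are switched on later, toward G2 and mitosis, by the MuvB complex together with B-Myb and FoxM1. Most cells of the adult lung rarely divide, and transcripts of these genes are widely read as a sign of dividing cells. In bulk samples, however, fewer dividing cells and less of the RNA per dividing cell cannot be told apart.

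The promoter windows of 4 genes are printed here, since the S phase and mitosis genes differ in the motifs they hold. Mki67 and Cenpf are mitosis genes that were higher in the QZ1-hi population, Ccnb2 is a mitosis gene with nearly equal means in the populations, and Mcm3 is the S phase gene that was higher in the QZ1-hi population. Each window runs from 250 bases before to 50 bases after a gene start listed by RefSeq on GRCm38.p6, and all 4 lie on the minus strand. Mki67 lies at chr7:135716330-135716629, Cenpf at chr1:189688037-189688336, Ccnb2 at chr9:70421505-70421804 and Mcm3 at chr1:20820263-20820562. Capitals mark the cell cycle homology region (CHR; TTTGAA or TTCGAA), the CCAAT box (CCAAT) and the E2F motif (TTTCCCGC, TTTGGCGC, TTTCGCGC or TTTGCCGC), each on either strand.
Mki67: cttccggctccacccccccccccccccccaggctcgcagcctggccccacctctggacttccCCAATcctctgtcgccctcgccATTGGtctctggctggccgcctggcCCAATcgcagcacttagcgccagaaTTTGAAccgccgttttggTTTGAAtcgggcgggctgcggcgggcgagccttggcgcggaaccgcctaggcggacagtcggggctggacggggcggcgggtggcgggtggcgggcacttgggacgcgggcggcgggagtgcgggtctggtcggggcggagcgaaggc
Cenpf: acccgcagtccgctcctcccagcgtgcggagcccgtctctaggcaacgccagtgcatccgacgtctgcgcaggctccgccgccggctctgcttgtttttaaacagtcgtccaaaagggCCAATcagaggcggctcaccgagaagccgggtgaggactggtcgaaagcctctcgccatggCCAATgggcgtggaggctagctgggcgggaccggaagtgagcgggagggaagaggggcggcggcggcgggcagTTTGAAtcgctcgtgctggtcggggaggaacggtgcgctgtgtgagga
Ccnb2: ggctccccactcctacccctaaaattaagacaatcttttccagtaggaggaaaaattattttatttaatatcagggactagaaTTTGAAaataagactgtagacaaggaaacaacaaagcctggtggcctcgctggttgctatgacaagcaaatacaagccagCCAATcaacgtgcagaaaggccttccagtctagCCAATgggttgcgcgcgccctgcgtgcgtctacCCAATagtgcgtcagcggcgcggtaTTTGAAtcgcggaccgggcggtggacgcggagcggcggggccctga
Mcm3: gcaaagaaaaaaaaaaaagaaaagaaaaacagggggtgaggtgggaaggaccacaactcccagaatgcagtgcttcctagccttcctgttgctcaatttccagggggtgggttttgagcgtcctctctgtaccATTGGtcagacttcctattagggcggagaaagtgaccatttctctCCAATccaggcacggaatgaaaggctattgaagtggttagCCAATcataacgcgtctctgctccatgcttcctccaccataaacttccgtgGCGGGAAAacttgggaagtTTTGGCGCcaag

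The search covered 34 of the 41 genes, and windows for Aurkb, Ccna2, Kif20a, Tpx2, Mcm4, Ccne2 and Gins2 were not used here. A CHR was matched in 17 of 21 mitosis windows (81.0%), against 2 of 13 S phase windows (15.4%) and 19.4% of the windows of all 27025 genes. The mitosis genes with no match in this window were Birc5, Ccnb1, Cenpe and Nusap1. A CCAAT box was matched in 19 of 21 mitosis windows (90.5%), in 8 of 13 S phase windows (61.5%) and in 37.9% of all windows. The same 17 mitosis windows held both motifs, compared with 7.7% of all windows. The E2F motif had the opposite distribution, with 6 of 13 S phase windows (46.2%), 1 of 21 mitosis windows (4.76%) and 2.32% of all windows. Its S phase carriers were Cdc6, Cdt1, Mcm3, Mcm5, Mcm6 and Mcm7, and its mitosis carrier was Cdk1. The windows of Cdc6, Mcm7 and E2f1 lie wholly inside these genes as GENCODE M21 annotates them. A match in these windows, or its absence, may therefore not concern the main promoter. Matches of different motifs overlapped in 1 of the 34 windows, and E2F matches overlapped each other in 2. A match is a run of letters and not a site, and no match says only that these letters are not in this window.

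**Figure D1:**
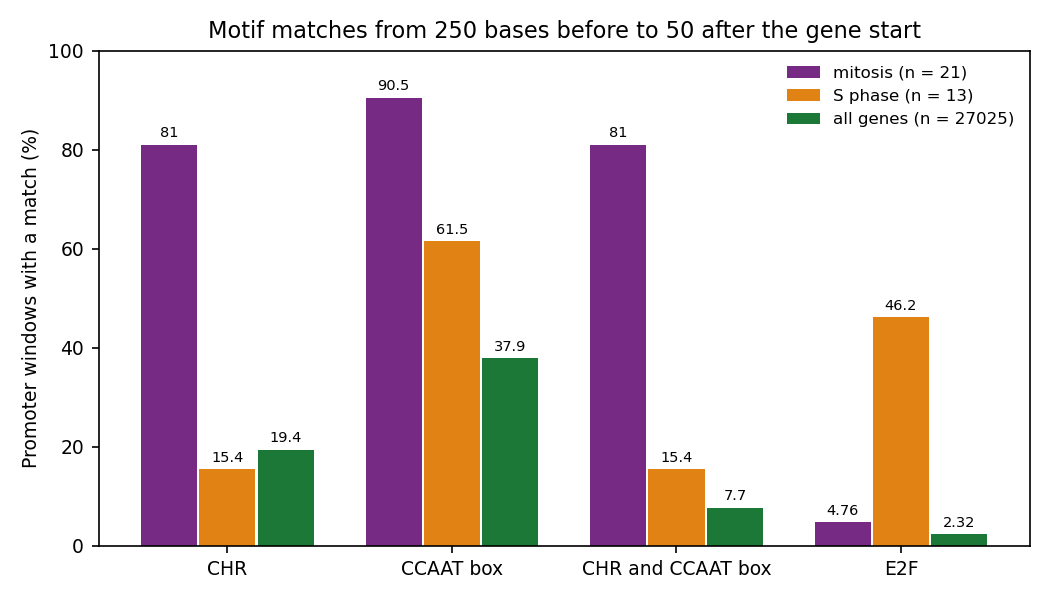
Share of promoter windows with a motif match (y axis, percent) for 21 mitosis genes, 13 S phase genes and 27025 genes of the RefSeq table. A CHR together with a CCAAT box was matched in 81.0% of mitosis windows, and the E2F motif in 46.2% of S phase windows.

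The libraries held between 18380918 and 26847938 counts. Counts from 48 mitochondrial genome and ribosomal RNA rows took a large share of every library, between 43.7 and 65.6% in QZ1-hi and between 34.0 and 53.2% in QZ1-lo. Levels are given as CPM, counts scaled to the library size times edgeR's TMM factor, and 3 counts, the floor used here, corresponded to 0.0894 to 0.179 CPM. All 41 genes passed the filter on low counts among 15583 genes tested. The deepest of the 41 was Mki67 with 15264 counts over the 8 libraries, and the shallowest was Ttk with 125. Single libraries held as few as 2 counts of Ttk and of Cdc6.

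The sort and its populations were checked against markers. In the QZ1-hi population all 10 endothelial markers were higher, with a median log2 fold change of 3.43, and 8 of 10 pericyte and fibroblast markers were higher. All 5 mesothelial markers were higher too, led by Upk3b, a uroplakin gene of the lung lining. All 7 club and ciliated markers, led by Scgb1a1, the club cell secretoglobin, and all 6 epithelial markers were lower, including Epcam, the epithelial surface protein used in the gate, at a log2 fold change of -1.17 ± 0.19 (SE, n = 4 per group). The alveolar type 1 markers, led by Ager, were split, with 2 of 6 higher (Pdpn and Cav1) and 4 lower. Of the 10 alveolar type 2 markers, 2 were higher and 0 lower. The smooth muscle markers, led by Acta2, were split too, with 2 of 5 higher (Myh11 and Tagln) and 1 lower (Cnn1). For comparison, edgeR called 9.88% of all genes tested higher and 8.21% lower. Libraries of the same population were closer to each other than to those of the other population, with Pearson correlations across genes of 0.940 to 0.969 within a population and 0.849 to 0.912 between them.

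Of the 25 mitosis genes, 3 were higher in the QZ1-hi population at an edgeR adjusted p under 0.05, namely Mki67, Cenpe and Cenpf, and 0 were lower. These 3 made up 12.0% of the list, where 9.88% of all genes tested were called higher and 8.21% lower, so the share of mitosis genes called was near the background. At an unadjusted p under 0.05, 11 of the 25 were higher and 0 were lower, against 15.4% and 13.5% of all genes. DESeq2 called 4 higher and 0 lower, where it called 11.6% of all genes higher and 10.3% lower, and limma-voom called 5 and 0, where it called 10.9% and 8.27%. The log2 fold changes of the 25 genes were above 0 for 22 of them, against 52.2% of all genes, and for 16 of them against 21.4% when libraries were scaled by size alone. Their median was 0.59, against 0.02 over all genes tested, and 0.11 with library size alone, where 0 of the 25 were called. They ranged from -0.22 for Hmgb2 to 1.53 for Ttk. In 5 of the 25, every QZ1-hi library lay above every QZ1-lo library, which held for 11.9% of all genes.

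Of the 16 S phase genes, Mcm3 was higher and 0 were lower by the same test, or 6.25% of the list against 9.88% of all genes higher and 8.21% lower. At an unadjusted p under 0.05 the counts were also 1 and 0, against 15.4% and 13.5% of all genes. DESeq2 and limma-voom each called 1 higher and 0 lower, against 11.6% and 10.9% of all genes higher. The median log2 fold change was 0.14 (-0.34 with library size alone), with 12 of 16 above 0 against 52.2% of all genes (3 of 16 against 21.4% with library size alone) and a range from -0.16 for Mcm5 to 1.04 for Ccne1. Mcm3 was also the 1 S phase gene in which the libraries of the populations did not overlap, which held in this direction for 11.9% of all genes. Whether the mitosis and S phase medians differ from each other was not tested.

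**Figure D2:**
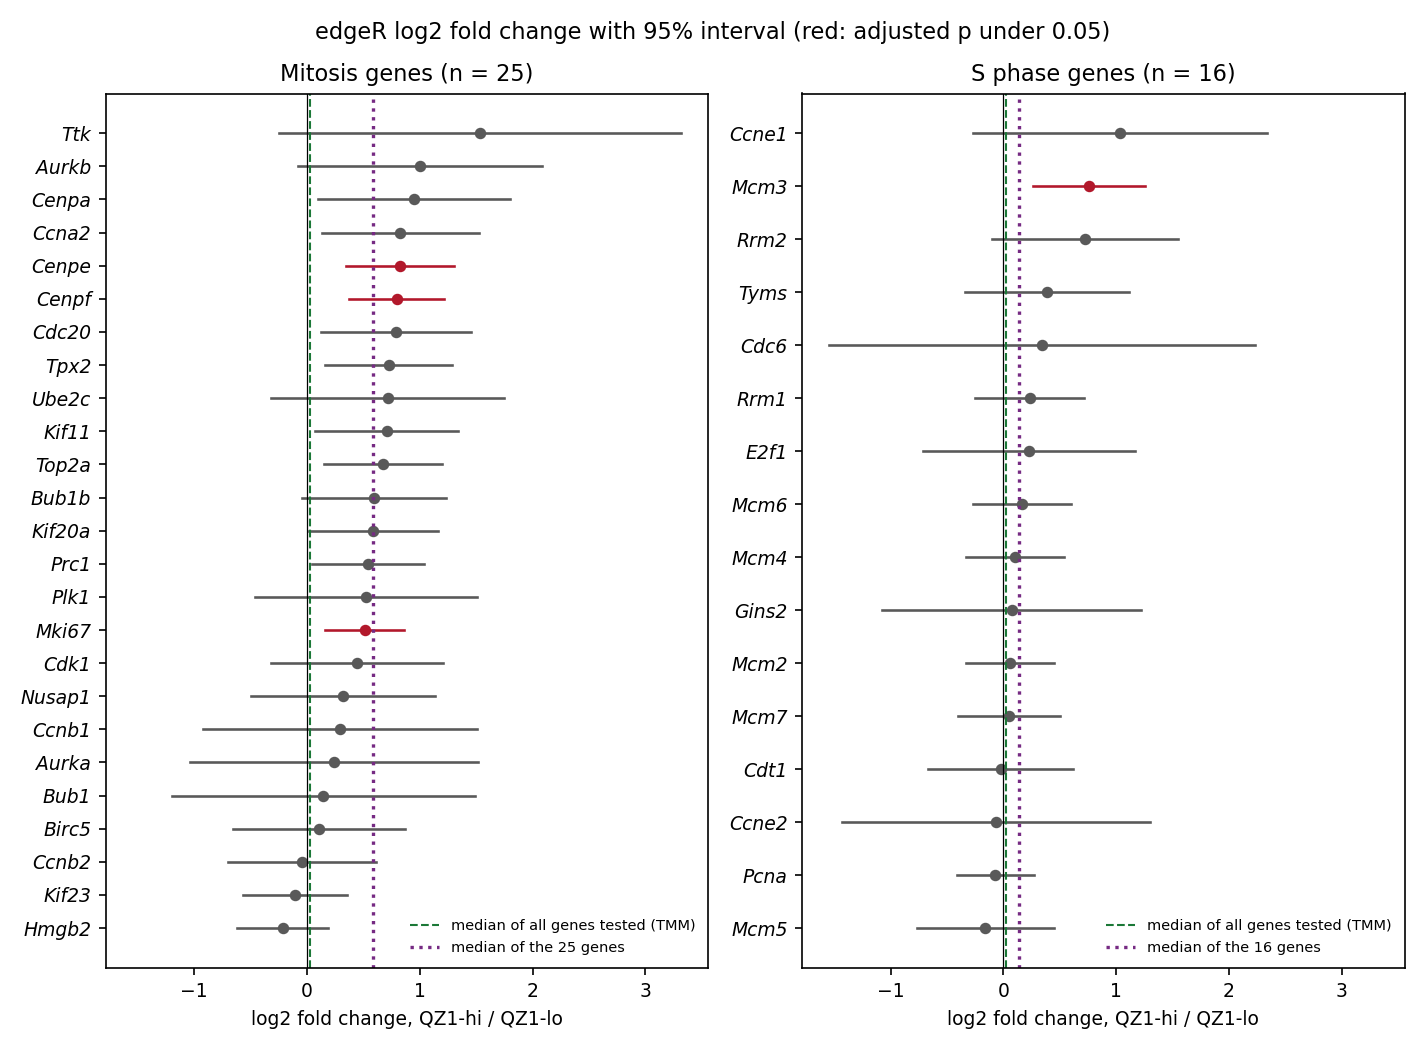
Log2 fold change of QZ1-hi over QZ1-lo (x axis) for each mitosis gene (left) and S phase gene (right), as the edgeR estimate with its 95% interval, from 4 libraries per population. Red marks an adjusted p under 0.05, the dashed line the median of all genes tested and the dotted line the median of the panel. The mitosis estimates center on 0.59 and the S phase estimates on 0.14, which was -0.34 with library size alone.

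Mki67 encodes Ki-67, a coat protein of mitotic chromosomes and the usual stain for dividing cells. The gene (Entrez Gene 17345) lies at chr7:135689784-135716361. Mki67 was measured at 97.6, 88.0, 88.3 and 124 CPM in the 4 QZ1-hi libraries and at 58.6, 70.0, 62.9 and 87.6 CPM in the 4 QZ1-lo libraries. The populations did not overlap, but the highest QZ1-lo library nearly reached the lowest QZ1-hi library. The means were 99.5 ± 16.99 and 69.8 ± 12.8 CPM (SD, n = 4 per group), a log2 fold change of 0.51 ± 0.16 (SE) with an edgeR adjusted p of 0.0469. Leaving out 1 library at a time, 7 of the 8 fits lost that call, the exception being the fit without QZ1-lo replicate 4, with adjusted p between 0.0189 and 0.131, while the log2 fold change stayed between 0.41 and 0.64.

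Top2a encodes the topoisomerase that untangles sister DNA before division. Its level was 25.1, 29.5, 30.9 and 43.3 CPM in QZ1-hi and 12.4, 23.6, 18.6 and 25.99 CPM in QZ1-lo. The highest QZ1-lo library lay just above the lowest QZ1-hi library, and the log2 fold change of 0.68 ± 0.24 (SE) did not pass, with an edgeR adjusted p of 0.0754. Hmgb2, a chromatin protein abundant in cycling cells, had the lowest log2 fold change of the mitosis genes, -0.22 (95% interval -0.62 to 0.18).

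Kinetochores are the structures that attach chromosomes to the spindle. Cenpf, a large kinetochore protein that accumulates in G2 (Entrez Gene 108000, chr1:189640606-189688086), was at 21.1, 17.6, 17.7 and 17.8 CPM in QZ1-hi and at 12.3, 11.4, 11.8 and 7.24 CPM in QZ1-lo. Its populations were well separated, and the QZ1-hi libraries other than replicate 1 lay very close together. The log2 fold change was 0.80 ± 0.19 (SE, n = 4 per group) with an edgeR adjusted p of 0.0136, and it stayed called in all 8 fits that left out 1 library, with adjusted p between 0.0180 and 0.0407.

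Cenpe, the motor that moves chromosomes to the spindle equator (Entrez Gene 229841, chr3:135212537-135273611), was at 14.0, 11.1, 13.0 and 19.4 CPM in QZ1-hi and at 7.81, 6.71, 10.2 and 7.69 CPM in QZ1-lo. The populations did not overlap. The log2 fold change was 0.82 ± 0.22 (SE, n = 4 per group) with an edgeR adjusted p of 0.0229, and the call was lost without QZ1-lo replicate 1, 2 or 4, where the adjusted p reached up to 0.0679. Cenpa, the histone variant that marks centromeres, was at 3.64, 2.96, 3.30 and 2.98 CPM in QZ1-hi and at 1.85, 2.44, 0.977 and 1.39 CPM in QZ1-lo. These libraries did not overlap either, but the counts were low, and a log2 fold change of 0.95 (95% interval 0.10 to 1.80) had an edgeR adjusted p of 0.125.

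The spindle checkpoint holds chromosomes back until each is attached. Cdc20, the activator of the anaphase-promoting complex that the checkpoint restrains, was at 5.76, 6.17, 7.05 and 4.17 CPM in QZ1-hi and at 4.00, 2.03, 4.05 and 3.27 CPM in QZ1-lo. No library overlapped, by a narrow margin, and the log2 fold change of 0.79 (95% interval 0.13 to 1.46) had an edgeR adjusted p of 0.103. Bub1b, the checkpoint protein BubR1, was between 15.4 and 17.5 CPM in QZ1-hi replicates 1 to 3 and at 31.6 CPM in replicate 4, and it was at 12.8, 10.3, 10.02 and 20.8 CPM in QZ1-lo. In each population replicate 4 stood above the rest, and the log2 fold change of 0.59 had a 95% interval of -0.04 to 1.23. Ube2c, the ubiquitin-conjugating enzyme of the same complex, had a log2 fold change of 0.71 with a wide interval of -0.32 to 1.74. The checkpoint kinases Bub1 and Ttk had wide intervals, with log2 fold changes of 0.14 (95% interval -1.20 to 1.49) and 1.53 (95% interval -0.25 to 3.32).

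Of the cyclins and kinases that drive entry into mitosis, none was called by edgeR. Ccna2, cyclin A2, which acts in S phase and G2, was at 7.71, 7.11, 7.29 and 6.44 CPM in QZ1-hi and at 2.30, 4.07, 3.22 and 6.55 CPM in QZ1-lo. The QZ1-lo replicate 4 was as high as the QZ1-hi libraries, and the other three QZ1-lo libraries lay below them. The log2 fold change was 0.83 (95% interval 0.13 to 1.52) with an edgeR adjusted p of 0.102, which became 0.0208 without that library. Ccnb2, cyclin B2, was at 3.94, 3.06, 4.74 and 6.02 CPM in QZ1-hi and at 3.55, 4.31, 6.04 and 4.42 CPM in QZ1-lo. Its populations overlapped almost completely, with a log2 fold change of -0.05 (95% interval -0.70 to 0.61). Ccnb1, cyclin B1, the partner of Cdk1, had a log2 fold change of 0.29 (95% interval -0.92 to 1.51).

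Cdk1, the kinase that triggers mitosis, had a log2 fold change of 0.44 (95% interval -0.32 to 1.21). Plk1, which matures centrosomes, was at 0.52 ± 0.45 (SE) and Aurka, a centrosome kinase, at 0.24 (95% interval -1.04 to 1.51). Aurkb and Birc5, the kinase and the survivin subunit of the chromosomal passenger complex, were at 1.00 (95% interval -0.08 to 2.08) and 0.11 (95% interval -0.66 to 0.87). None of these 5 genes passed the test.

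Of the spindle and cytokinesis genes, Tpx2, which activates Aurora A and seeds spindle microtubules, was at 12.4, 16.7, 13.0 and 18.1 CPM in QZ1-hi and at 7.36, 5.74, 10.7 and 12.6 CPM in QZ1-lo. A single QZ1-lo library overlapped the QZ1-hi range, and the log2 fold change of 0.72 (95% interval 0.16 to 1.29) had an edgeR adjusted p of 0.0770. Kif11, the motor that pushes spindle poles apart, Kif20a, a motor of the midzone, and Prc1, which bundles midzone microtubules, had log2 fold changes of 0.71, 0.59 and 0.54, with edgeR adjusted p of 0.128, 0.161 and 0.135. Nusap1, a spindle microtubule binder, was at 0.32 (95% interval -0.50 to 1.14). Kif23, the motor of the centralspindlin complex needed for cytokinesis, was at -0.11 (95% interval -0.57 to 0.35), and it was among 5 of the 25 mitosis genes whose interval stayed within 1 log2 unit of 0, against 51.2% of all genes.

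**Figure D3:**
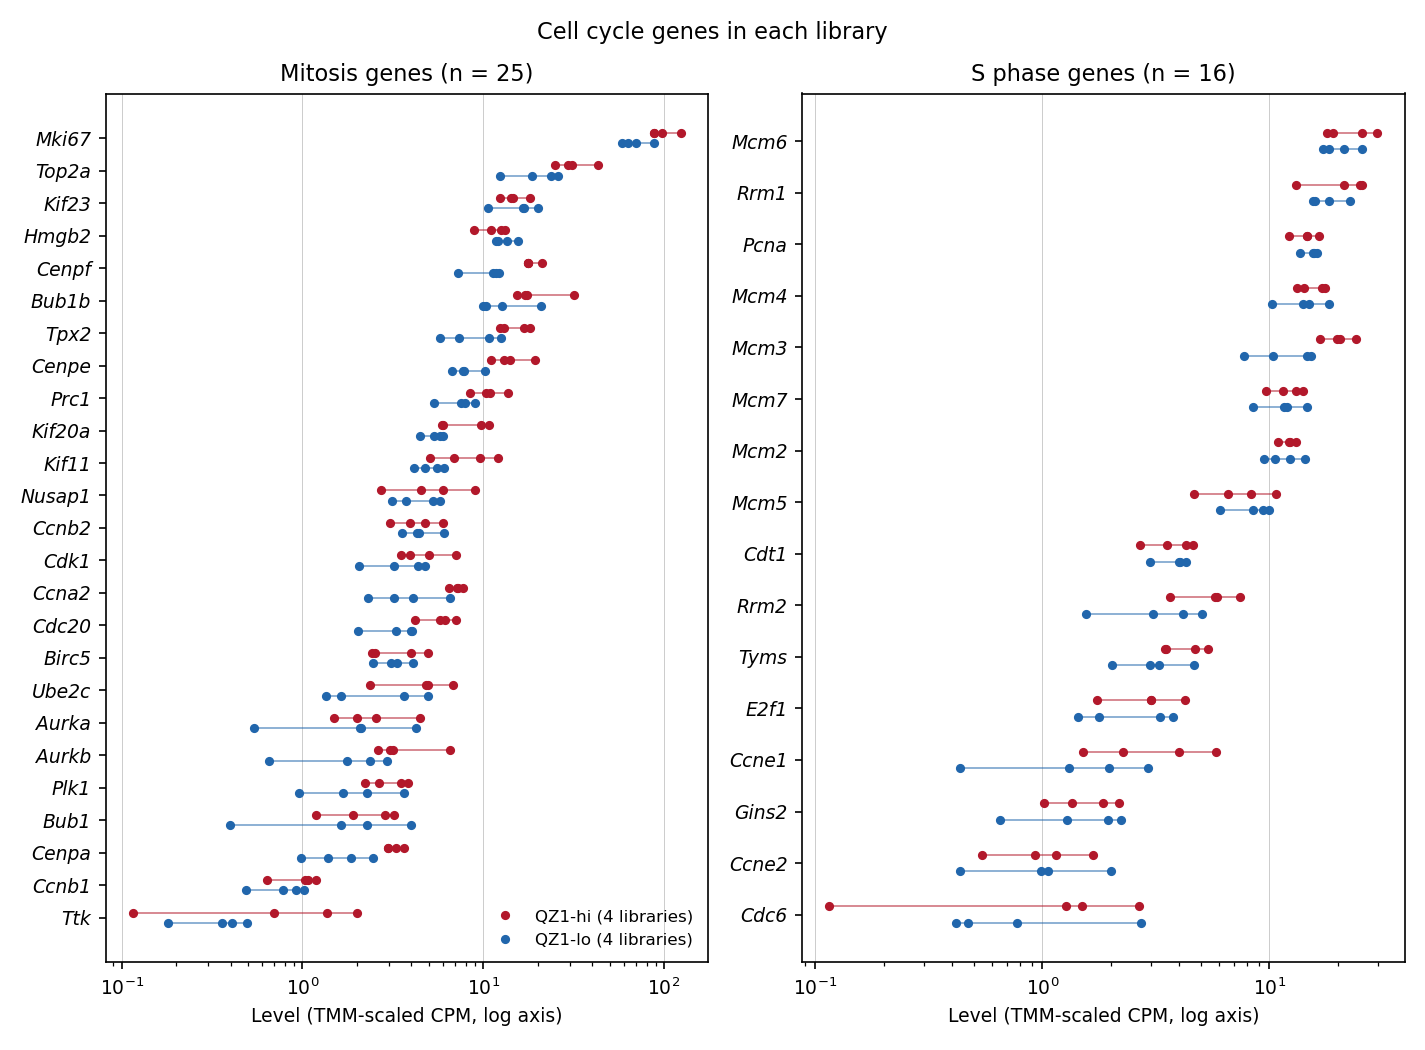
Level of each gene in each library (x axis, TMM-scaled CPM on a log axis) for the mitosis genes (left) and the S phase genes (right), with 1 point per library and a line over the range of each population. Levels are not per length, so they compare the populations within a gene. In Mki67, Cenpa, Cenpe, Cenpf, Cdc20 and Mcm3 every QZ1-hi point lies above every QZ1-lo point.

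Among the S phase genes, Mcm3 is a subunit of the MCM2-7 helicase, the ring that is loaded on origins and unwinds DNA (Entrez Gene 17215, chr1:20802968-20820312). Mcm3 was at 19.8, 20.5, 16.7 and 24.1 CPM in QZ1-hi and at 10.4, 15.2, 7.71 and 14.7 CPM in QZ1-lo. The populations did not overlap. The log2 fold change was 0.76 ± 0.23 (SE, n = 4 per group) with an edgeR adjusted p of 0.0387, and it lost the call without any 1 of the QZ1-hi libraries or QZ1-lo replicate 1 or 3, with adjusted p up to 0.103.

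The other subunits of the same ring gave no such separation. Mcm2 was at 10.9, 12.3, 13.1 and 12.2 CPM in QZ1-hi and at 9.45, 10.6, 14.3 and 12.3 CPM in QZ1-lo. Its populations overlapped, at a log2 fold change of 0.06 (95% interval -0.33 to 0.45). Mcm4, Mcm6 and Mcm7 had log2 fold changes of 0.11, 0.17 and 0.05, and Mcm5 had -0.16. The 95% intervals of Mcm2, Mcm4, Mcm6 and Mcm7 ended at 0.60 or lower, below the Mcm3 estimate. The Mcm3 interval of 0.26 to 1.26 overlapped each of them, and the difference between subunits was not tested. The loading factors Cdt1 and Cdc6 were at -0.02 (95% interval -0.67 to 0.62) and 0.35 (95% interval -1.54 to 2.23), and Gins2, a subunit of the active helicase, was at 0.07 (95% interval -1.07 to 1.22). The Cdc6 interval was the widest of the S phase genes, and its lowest library held 2 counts, under the floor.

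Pcna, the sliding clamp of the replication fork, had the narrowest interval of the S phase genes. It was at 14.7, 12.2, 14.7 and 16.6 CPM in QZ1-hi and at 15.6, 16.2, 13.6 and 15.8 CPM in QZ1-lo. The libraries of the populations overlapped throughout, and the log2 fold change of -0.07 had a 95% interval of -0.42 to 0.27. For nucleotide supply, Rrm1 and Rrm2, the subunits of ribonucleotide reductase, were at 0.23 (95% interval -0.25 to 0.71) and 0.72 (95% interval -0.10 to 1.55), and Tyms, thymidylate synthase, at 0.39 (95% interval -0.34 to 1.12). Of the genes that open S phase, Ccne1, cyclin E1, was at 1.04 (95% interval -0.27 to 2.34), Ccne2, cyclin E2, at -0.07 (95% interval -1.43 to 1.30), and E2f1, the E2F activator, at 0.23 (95% interval -0.72 to 1.17). In 8 of the 16 S phase genes the interval stayed within 1 log2 unit of 0.

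Per kb of exon, Mki67 and Pcna were the most abundant of the 41 genes. Mki67 was at 9.89 ± 1.69 CPM per kb in QZ1-hi and 6.94 ± 1.27 in QZ1-lo, and Pcna at 9.58 ± 1.18 and 10.08 ± 0.777 (SD, n = 4 per group), so Pcna was ahead in QZ1-lo while in QZ1-hi they differed by less than their spread. Mcm3 was at 6.69 ± 1.01 and 3.96 ± 1.18 CPM per kb, next after them in QZ1-hi but below Hmgb2, Kif23, Mcm6, Rrm1 and Mcm4 in QZ1-lo, where neighbours in this order differed by less than their spread. Over all 8 libraries, Cenpe (1.42) and Cenpf (1.31) were near the mitosis median of 1.48 CPM per kb, which lay below the S phase median of 2.20. The least abundant were Ttk (0.24), Cdc6 (0.26), Ccne2 (0.34), Ccnb1 (0.36) and Gins2 (0.40). Some levels are uncertain because the strand setting of the counting was not given in the sources used here. In the GENCODE M21 annotation of GRCm38, an opposite-strand gene covers 67.3% of the exon bases of Gins2, 29.3% of Kif20a, 22.8% of Ube2c, 17.4% of Ccne2, 12.5% of Ccna2 and 11.1% of Prc1, and smaller parts of Mcm7, Plk1, Nusap1 and Cdc20. Near-identical copies also share 50-base stretches with 23.4% of Ccnb1, 23.3% of Mcm7, 19.1% of Pcna and 18.7% of Hmgb2. The genes called higher share at most 2.0% (Cenpe) and overlap no other exon.

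The libraries of a population differed among themselves. The mitosis genes summed to 294, 282, 281 and 370 CPM in QZ1-hi and to 179, 215, 210 and 260 CPM in QZ1-lo. Replicate 4 was the highest library in each population, and no QZ1-lo library reached the lowest QZ1-hi library. A single gene, Mki67, was the largest part of these sums. The S phase genes summed to 144, 157, 124 and 178 CPM in QZ1-hi and to 111, 149, 122 and 140 CPM in QZ1-lo, where the populations overlapped. The highest library was QZ1-hi replicate 4 for 9 of 25 mitosis genes and 7 of 16 S phase genes, and the lowest was QZ1-lo replicate 1 for 10 mitosis genes and QZ1-lo replicate 1 or 3 for 5 S phase genes each.

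Marker levels also differed between the populations and among the libraries, and their part in the differences was not tested. The 10 endothelial markers summed to 1884, 1074, 2486 and 1047 CPM in QZ1-hi and to 101, 138, 320 and 78.7 CPM in QZ1-lo, with Cdh5, the endothelial cadherin, the most abundant. Among the QZ1-hi libraries, replicate 4 was lowest for these markers and highest for the mitosis genes. QZ1-hi replicate 2 was nearly as low for these markers, but its mitosis genes summed to 282 CPM, against 370 CPM in replicate 4. The 10 alveolar type 2 markers, led by Sftpc, the surfactant protein C gene, summed to 11400 to 14800 CPM in QZ1-hi and 8108 to 9805 CPM in QZ1-lo. By edgeR 2 of the 10 were called higher and 0 lower, against 9.88% and 8.21% of all genes. Their median log2 fold change was 0.39, and 9 of the 10 were above 0, against 52.2% of all genes. With library size alone 0 were higher and 1 lower, against 5.66% and 16.1% of all genes. Their median was then -0.04, with 2 of the 10 above 0, against 21.4% of all genes. The 12 leukocyte markers, led by Cd74, an antigen presentation chaperone, summed to 1667, 1752, 1704 and 2378 CPM in QZ1-hi and to 1572, 1850, 1719 and 1948 CPM in QZ1-lo. Of the 11 tested, 0 were higher and 1 was lower, Csf3r, a neutrophil receptor gene. That is 9.09% of those tested, near the 8.21% of all genes called lower. Transcripts of leukocyte markers were thus present despite the gate on CD45. Their sum, led by Cd74, was highest in replicate 4 of each population, though QZ1-lo replicate 2 was close to QZ1-lo replicate 4. Ptprc, the CD45 gene, had a mean of 131 ± 64.2 CPM in QZ1-hi and 125 ± 30.0 CPM in QZ1-lo (SD, n = 4 per group).

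The 9 matched erythroid and platelet markers, led by Hba-a2, an alpha globin gene, summed to 140, 458, 398 and 1019 CPM in QZ1-hi and to 285, 1593, 967 and 3104 CPM in QZ1-lo, again highest in replicate 4. Of the 7 tested, the platelet chemokine genes Pf4 and Ppbp were higher and 0 were lower. That is 28.6% higher, against 9.88% of all genes higher and 8.21% lower. The median log2 fold change of the 7 was -1.49, and 5 of them lay below 0. At an unadjusted edgeR p under 0.05, 2 were higher and 3 lower, against 15.4% and 13.5% of all genes. Klf1 and Gata1, which mark nucleated erythroid precursors, were at most 0.814 CPM in any library. No marker of any list was at 0 in all libraries. The pericyte and fibroblast markers, led by Col3a1, a fibrillar collagen gene, summed to 1661 to 3219 CPM in QZ1-hi and 43.5 to 377 CPM in QZ1-lo, and the epithelial markers, led by Cdh1, the epithelial cadherin, to 569 to 875 and 1540 to 2093 CPM.

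Further genes of the cell cycle were read from lists of the same kind. Of 51 further mitosis genes tested, 4 were higher and 3 lower in QZ1-hi, against 9.88% and 8.21% of all genes tested, with a median log2 fold change of 0.54 (0.07 with library size alone). Of the 51, 42 were above 0 against 52.2% of all genes, and 32 against 21.4% with library size alone. DESeq2 and limma-voom each called 9 higher and 3 lower, where they called 11.6% and 10.9% of all genes higher and 10.3% and 8.27% lower. Hjurp, the chaperone that places CENP-A, was at 8.39, 11.7, 8.85 and 11.5 CPM in QZ1-hi and at 5.52, 3.91, 6.44 and 5.03 CPM in QZ1-lo, without overlap. Its log2 fold change was 0.95 ± 0.23 (SE, n = 4 per group; edgeR adjusted p 0.0136), and it was called in all 8 fits that left out 1 library. Ndc80, a microtubule-binding kinetochore subunit, Ncapg, a condensin subunit, and Incenp, the scaffold of the passenger complex, were higher by 1.64, 1.15 and 0.76 on the log2 scale, and kept the call in 5, 2 and 6 of the 8 fits that left out 1 library.

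Nek2, a kinase that splits centrosomes, was lower, at 6.06, 6.72, 5.20 and 5.60 CPM in QZ1-hi and at 12.7, 14.1, 19.0 and 15.7 CPM in QZ1-lo. The populations were far apart, with a log2 fold change of -1.38 ± 0.19 (SE, n = 4 per group; edgeR adjusted p 7.23e-04) that was called in all 8 fits that left out 1 library. Ect2, needed for cytokinesis, and Psrc1, a spindle protein, were lower at log2 fold changes of -1.01 and -0.84, calls kept in 4 and 2 of those fits. By all 3 tools the further mitosis genes called included genes in either direction.

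Of 49 further S phase genes tested, 0 were higher by edgeR and 1 was lower, against 9.88% and 8.21% of all genes, with a median log2 fold change of 0.27 (-0.20 with library size alone). Of the 49, 36 were above 0 against 52.2% of all genes, and 11 against 21.4% with library size alone. At an unadjusted p under 0.05, 3 were higher and 2 lower, against 15.4% and 13.5% of all genes. DESeq2 called 2 higher and 1 lower, and limma-voom 1 higher and 2 lower, which are smaller shares than over all genes. Rfc4, a subunit of the loader of the Pcna clamp, was the lower one, at 2.37, 1.48, 1.62 and 2.09 CPM in QZ1-hi and 4.65, 3.58, 5.21 and 3.93 CPM in QZ1-lo. The populations did not overlap, and the log2 fold change was -1.20 ± 0.32 (SE, n = 4 per group; edgeR adjusted p 0.0235), a call kept in 4 of the 8 fits that left out 1 library. Wdr76, Pold3, a DNA polymerase delta subunit, and Tk1, thymidine kinase, had log2 fold changes of 1.51, -0.60 and 0.91 and did not pass, with edgeR adjusted p of 0.0762, 0.0794 and 0.0857.

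Upstream of S phase, 1 of 10 G1 cyclins and kinases was higher, a share close to the 9.88% of all genes. With library size alone 0 were higher and Ccnd1, cyclin D1, was lower, at a log2 fold change of -0.82. The higher gene with TMM was Ccnd3, cyclin D3, at 31.2, 28.7, 30.1 and 31.3 CPM in QZ1-hi and 14.0, 23.8, 19.3 and 23.7 CPM in QZ1-lo. The populations did not overlap, and the difference was 0.59 ± 0.17 on the log2 scale (SE, n = 4 per group; edgeR adjusted p 0.0349), which was called in 2 of the 8 fits that left out 1 library. Ccnd2, Cdk6 and Mycn had log2 fold changes of 0.41, 0.62 and 0.79 with edgeR adjusted p of 0.0918, 0.112 and 0.114. Of 17 CDK inhibitors and other brakes, Gas1, a membrane protein linked to growth arrest and expressed in stromal cells, was higher and Mdm2, the ligase that restrains p53, was lower, against 9.88% and 8.21% of all genes. Gas1 was at 12.5, 48.1, 28.0 and 22.2 CPM in QZ1-hi and at 1.28, 4.76, 5.65 and 1.43 CPM in QZ1-lo, and its populations were widely separated, with a log2 fold change of 3.08 ± 0.54 (SE, n = 4 per group; edgeR adjusted p 0.00238). Mdm2 had a log2 fold change of -0.55 ± 0.15 (SE; edgeR adjusted p 0.0295), called in 2 of those fits, whereas Gas1 was called in all 8. Btg2 and Ccng2, both antiproliferative genes, were at 0.40 and -0.47 with edgeR adjusted p of 0.0557 and 0.0801. DESeq2 and limma-voom each called 2 of the 17 higher and 2 lower, adding Btg2 as higher and Btg1, its relative, as lower, where they called 11.6% and 10.9% of all genes higher and 10.3% and 8.27% lower. With library size alone 1 was higher and 5 were lower, against 5.66% and 16.1% of all genes, and Btg2 turned to -0.08.

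Of 16 genes for E2F, MuvB and FoxM1 factors, Tfdp2, a partner of the E2F proteins, was lower with a log2 fold change of -0.41 ± 0.13 (SE, n = 4 per group; edgeR adjusted p 0.0488), a call lost in all 8 fits that left out 1 library. That is 6.25% of the list, against 8.21% of all genes called lower. By edgeR 0 were higher, also at an unadjusted p under 0.05 and by DESeq2 or limma-voom. Foxm1 was at 7.29, 5.78, 4.97 and 7.69 CPM in QZ1-hi and at 4.14, 4.64, 4.27 and 5.08 CPM in QZ1-lo. A single library overlapped, and the log2 fold change of 0.51 (95% interval -0.02 to 1.03) had an edgeR adjusted p of 0.190. E2f6 and Lin9 were at 0.60 and -0.64 with edgeR adjusted p of 0.206 and 0.238.

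**Figure D4:**
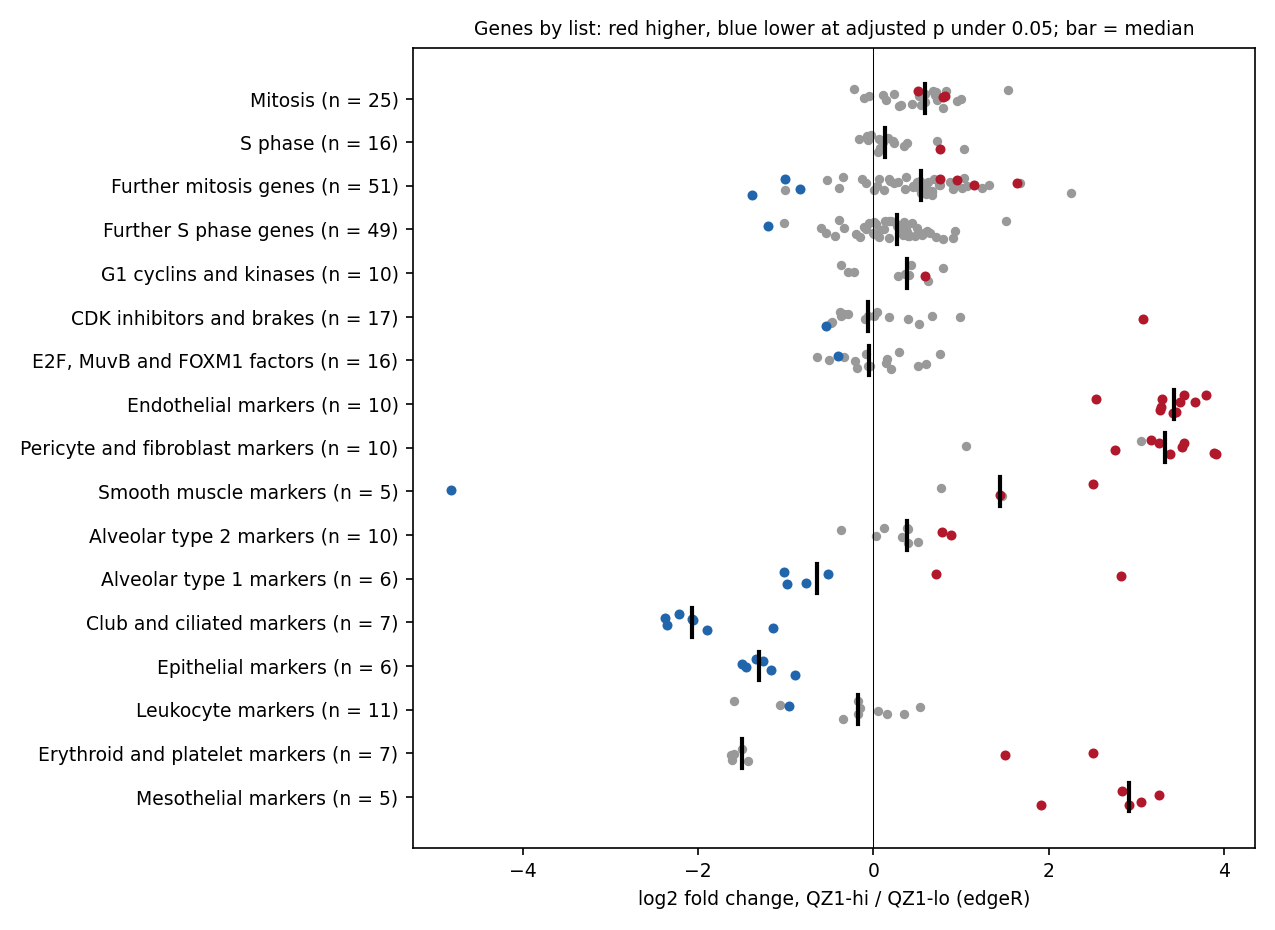
Log2 fold change of QZ1-hi over QZ1-lo (x axis) of each gene tested, by list (y axis), with a bar at the median of the list. Red points were higher and blue points lower at an edgeR adjusted p under 0.05. The medians of the mitosis and further mitosis lists are 0.59 and 0.54 (0.11 and 0.07 with library size alone), and the endothelial list has a median of 3.43.

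The calls also depended on how the libraries were scaled. Scaling by library size alone, which leaves in the unequal share of mitochondrial and ribosomal RNA, moved the median of all genes from 0.02 to -0.44, and the genes called higher and lower from 1540 and 1280 to 882 and 2509. Under that scaling 0 of the 25 mitosis genes and 0 of the 16 S phase genes were called, beside 5.66% of all genes higher and 16.1% lower, and the S phase median turned from 0.14 to -0.34. Mki67 had a log2 fold change of 0.04, Cenpf of 0.34, Cenpe of 0.32 and Mcm3 of 0.31. A change of scaling shifts all genes by nearly the same amount, so the distance of a list from the median of all genes is kept by construction. With TMM this distance was 0.56 for the mitosis genes and 0.11 for the S phase genes. Of the further mitosis genes 0 were then higher and 3 lower, with a median of 0.07, and Nek2 (-1.85) was lower under either scaling while Hjurp (0.42) was not called with library size alone. Ccnd3 (0.16) was not called then either, and Gas1 (2.58), Mdm2 (-1.04) and Tfdp2 (-0.85) kept their calls. Taking out the mitochondrial and ribosomal RNA rows before TMM left every one of the 41 calls as it was.

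**Figure D5:**
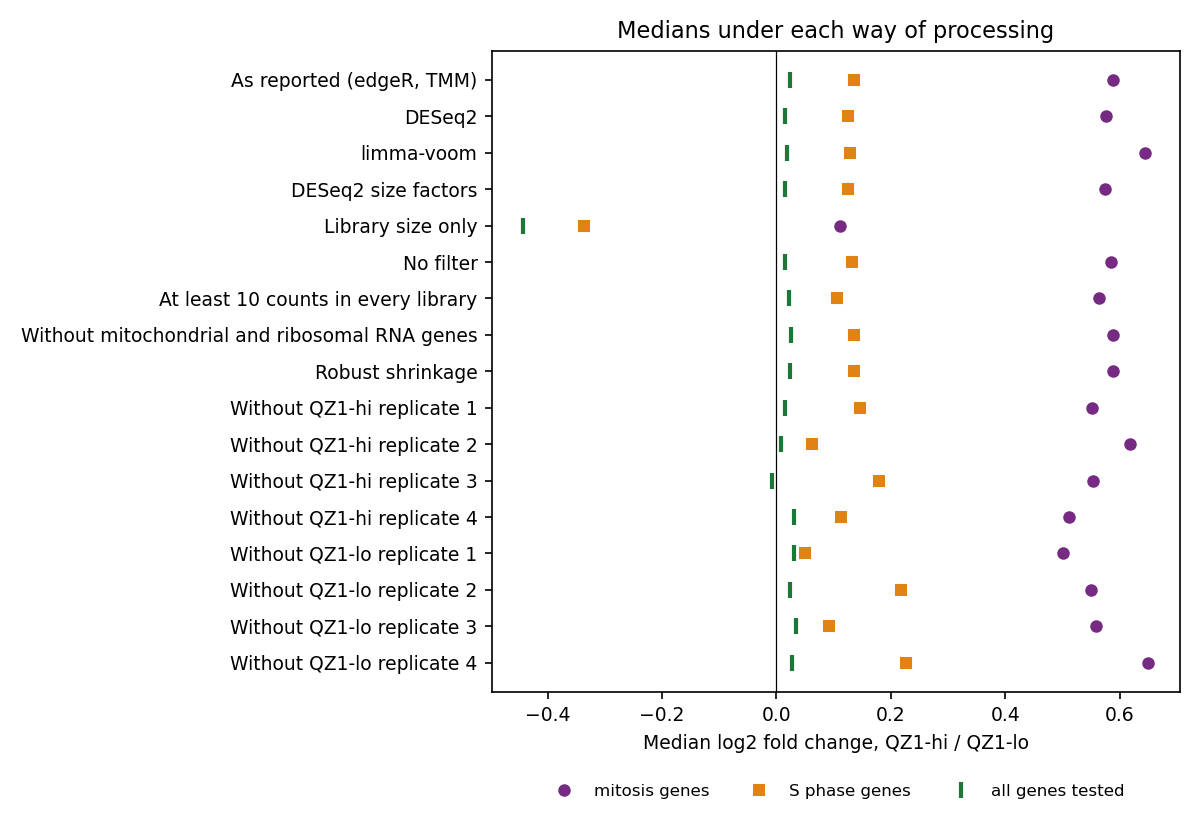
Median log2 fold change of QZ1-hi over QZ1-lo (x axis) of the 25 mitosis genes, the 16 S phase genes and all genes tested, under each way of processing (y axis). The mitosis median lies to the right of the median of all genes in every row, and with library size alone the medians shift to 0.11, -0.34 and -0.44.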

How the data were processed

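The submitters sorted the cells, prepared libraries with the SMARTer stranded total RNA kit and sequenced them. Reads were counted per gene with Rsubread, and the authors deposited these counts without normalization. The processing notes name the mm10 build and DESeq2. The aligner, the annotation and the strand setting of the counting were not given in the sources used here.

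Of 27179 Entrez Gene identifiers, 25275 were given a symbol through RefSeq and 1904 had none. Of the listed genes, Hbb-bt was not matched. The test used edgeR 4.0.16 in R 4.3.3 (TMM, filterByExpr with a minimum count of 10 and total of 15, quasi-likelihood test) over 15583 genes, with Benjamini-Hochberg adjustment and a threshold of 0.05. SE was derived from the log2 fold change and its F statistic, and intervals are at 95%. DESeq2 1.42.0 and limma 3.58.1 (voom) were alternatives, as were other scalings, filters, a threshold of 0.01 and leaving out each library. Exon lengths, overlaps and shared 50-base stretches came from GENCODE M21, and promoters from RefSeq.

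The members and lists were chosen with earlier results of these data known. All 41 members could be named, and from each further list the 4 genes of smallest p, plus every called gene in lists of 17 or fewer. Ncapg, Ect2, Psrc1, Btg1, Ccnd1 and called marker genes were named after their values were seen. Total counts per library limit how precisely a level is counted, and as no molecular identifiers were counted, the floor reflects counting error alone. Libraries also varied beyond counting error, with a common biological coefficient of variation of 0.336. P-values set the difference between the populations against the spread between these samples, estimated with information shared across genes.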

Additional observations from a re-analysis of the deposited data

Results flagged for a closer look

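In 4 of 82 groups of 4 libraries, the highest library stood apart from the rest by Dixon's test at the 95% level. Chance alone gives about 1 in 20 groups. Bub1b was at 31.6 CPM in QZ1-hi replicate 4 and at 15.4 to 17.5 CPM in the other QZ1-hi libraries. Aurkb was at 6.56 CPM in the same library and at 2.60 to 3.18 CPM in the others. Cenpf was at 21.1 CPM in QZ1-hi replicate 1, against 17.6 to 17.8 CPM in the others. Cdc6 was at 2.73 CPM in QZ1-lo replicate 2, with the rest of that population at 0.417 to 0.778 CPM.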

How the results depend on the processing

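No paired analysis was possible because the labels give no replicate numbers that QZ1-hi and QZ1-lo libraries share. The tests therefore treated all libraries as independent, which would not hold if a QZ1-hi and a QZ1-lo library came from the same mouse. DESeq2, its size factors, no filter, robust shrinkage and removal of the mitochondrial and ribosomal RNA rows kept the direction of all 41 genes, and DESeq2 added Top2a to the calls. With limma-voom 5 mitosis genes were called higher, with Ccna2 and Tpx2 added, and Cdt1 turned to 0.0097. Requiring 10 counts in every library left 24 mitosis and 15 S phase genes tested, without Ttk and Cdc6. The stricter threshold of 0.01 left 902 genes higher and 665 lower, with 0 mitosis and 0 S phase genes among them.

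With library size only, 882 genes were higher and 2509 lower, 0 mitosis and 0 S phase genes were called, and the medians were 0.11 and -0.34. The log2 fold change then turned below 0 for Aurka (-0.28), Birc5 (-0.30), Bub1 (-0.34), Ccnb1 (-0.21), Cdk1 (-0.0454), Nusap1 (-0.23), Mcm2 (-0.42), Mcm4 (-0.36), Mcm6 (-0.33), Mcm7 (-0.41), Tyms (-0.14), Rrm1 (-0.25), Cdc6 (-0.0604), Gins2 (-0.34) and E2f1 (-0.23).

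Leaving out each library gave 1136 to 1506 genes higher and 938 to 1201 lower. Mitosis genes called higher ranged from 1 (without QZ1-lo replicate 1 or 2) to 6 (without QZ1-lo replicate 4), and S phase genes from 0 to 1. The mitosis median ranged from 0.50 to 0.65 and the S phase median from 0.05 to 0.23. The sign changed in at least 1 such fit for Aurka (-0.17 to 0.75), Birc5 (-0.12 to 0.24), Bub1 (-0.20 to 0.67), Ccnb2 (-0.20 to 0.12), Kif23 (-0.26 to 0.0182), Ccne2 (-0.35 to 0.37), Cdc6 (-0.21 to 1.32), Cdt1 (-0.15 to 0.14), Gins2 (-0.18 to 0.31), Mcm2 (-0.03 to 0.17), Mcm4 (-0.0252 to 0.24), Mcm5 (-0.34 to 0.0161) and Mcm7 (-0.075 to 0.18). The cause was not tested. Ttk, Ccnb1, Ccne2, Cdc6 and Gins2 had the fewest counts of the 41.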
